A study of Homo sapiens with 6 samples.

Results

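The genes described here are 60 ribosome biogenesis factors, proteins that make, modify, cut, fold or assemble ribosomal RNA (rRNA) and are not part of the finished ribosome. They were chosen by name, as rows of the deposited table whose gene name is on a list of 60, and all 60 were found among its 60612 rows. The list was made with earlier results of these data known, so the counts of members below are description, not independent support. All 60 also passed the filter on low values, as did 14708 rows in all. The members fall into 6 groups by role: 5 genes of RNA polymerase I transcription, 7 proteins of the cores of small nucleolar ribonucleoproteins (snoRNPs), 4 nucleolar scaffold and chaperone proteins, 19 factors of the small subunit, 19 factors of the large subunit, and 6 RNA helicases.

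Transcripts were measured by RNA sequencing of poly(A) RNA in the human line SNU-368, which the labels give as hepatocellular carcinoma (HCC). The samples were 3 libraries from cells carrying a short hairpin RNA against TFAM (shTFAM) and 3 from cells carrying a control hairpin (shCtrl). Both groups are thus hairpin-carrying cells of 1 line, and the labels used here do not say how many hairpins or clones stand behind a group, how long the cells carried them, or whether replicates were separate cultures. The p-values therefore measure the spread between these libraries, which may be technical. TFAM coats mitochondrial DNA (mtDNA) and starts its transcription, and the comparison asks how nuclear transcripts differ when TFAM is reduced.

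Ribosomes are begun in the nucleolus, where RNA polymerase I transcribes the long rRNA precursor. Guide snoRNPs modify this precursor, the processome folds and cuts the part that becomes the small subunit, and a separate set of factors assembles the large subunit. Most of these factors leave the particle before it is finished, and in growing cells their genes are among the best known targets of the transcription factor MYC.

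TFAM itself had 63.4, 64.7 and 56.4 CPM (counts scaled to a library of fixed size) in shTFAM, against 81.7, 75.8 and 89.2 CPM in shCtrl, without overlap. It averaged 61.5 ± 4.47 CPM in shTFAM and 82.2 ± 6.70 CPM in shCtrl (SD, n = 3 each), with a log2 fold change of -0.42 (SE 0.107, adjusted p 0.0377 by edgeR). Leaving out any 1 of the 6 libraries ended this call, with adjusted p from 0.0676 to 0.0948. Library totals lay between 43286024 and 61058282 counts, so that 3 counts, the floor of detection, equal 0.0517 to 0.0673 CPM by library, for counting error only. On the second principal component (16.6% of the variance) shCtrl 1 and shCtrl 2 lay together and shCtrl 3 lay apart from them. The defining hepatocyte genes were near 0 in both groups: ALB, AFP, APOA1, APOA2, APOB, TTR and FGB had no count in any library, and the 11 hepatocyte genes looked at summed to 0.0932 to 0.309 FPKM (fragments scaled to gene length and library size) in shTFAM and 0.0982 to 0.292 FPKM in shCtrl.

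The promoters of 5 members are printed here because they hold short motifs that were searched in the 49 members with a RefSeq promoter and belong to genes called in both directions: EMG1, GAR1 and DDX31, which fell, and NOP10 and RIOK3, the only members that rose. Each is the 250 bases before the gene's start in RefSeq (GRCh38.p14), written 5′ to 3′ on the gene's strand. Capitals mark CACGTG, the letters of the E-box that MYC and MAX dimers bind, and CCGGAAGT, letters of the core bound by ETS-family factors, on either strand.
EMG1: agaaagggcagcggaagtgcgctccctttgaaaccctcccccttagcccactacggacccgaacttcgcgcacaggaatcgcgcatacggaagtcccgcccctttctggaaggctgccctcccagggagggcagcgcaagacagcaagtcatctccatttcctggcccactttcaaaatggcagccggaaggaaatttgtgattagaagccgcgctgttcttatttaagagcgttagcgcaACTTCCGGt
GAR1: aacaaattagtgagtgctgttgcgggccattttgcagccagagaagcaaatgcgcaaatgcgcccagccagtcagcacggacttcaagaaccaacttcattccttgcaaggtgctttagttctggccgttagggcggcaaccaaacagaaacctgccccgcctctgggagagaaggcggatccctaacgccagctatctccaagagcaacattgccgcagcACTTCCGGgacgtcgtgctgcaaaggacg
DDX31: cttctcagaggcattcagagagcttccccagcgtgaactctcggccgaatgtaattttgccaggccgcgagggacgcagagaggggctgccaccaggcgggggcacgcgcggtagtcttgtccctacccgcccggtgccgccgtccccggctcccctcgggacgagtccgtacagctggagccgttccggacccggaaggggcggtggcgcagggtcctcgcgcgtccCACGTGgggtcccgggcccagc
NOP10: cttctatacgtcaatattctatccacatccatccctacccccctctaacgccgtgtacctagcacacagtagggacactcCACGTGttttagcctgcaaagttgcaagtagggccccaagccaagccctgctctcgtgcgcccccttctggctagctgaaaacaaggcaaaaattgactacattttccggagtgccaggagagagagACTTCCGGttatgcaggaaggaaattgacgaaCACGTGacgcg
RIOK3: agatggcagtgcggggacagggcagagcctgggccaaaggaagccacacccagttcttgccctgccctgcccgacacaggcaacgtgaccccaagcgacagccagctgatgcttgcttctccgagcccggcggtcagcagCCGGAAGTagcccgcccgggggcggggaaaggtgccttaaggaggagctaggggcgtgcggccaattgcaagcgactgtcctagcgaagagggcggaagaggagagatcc
The EMG1 stretch is chr12:6970663-6970912 on the plus strand, GAR1 is chr4:109815260-109815509 on the plus strand, DDX31 is chr9:132669984-132670233 on the minus strand, NOP10 is chr15:34343137-34343386 on the minus strand and RIOK3 is chr18:23453037-23453286 on the plus strand. The ETS letters begin 9 bases before the start in EMG1, 29 in GAR1, 43 in NOP10 and 110 in RIOK3. The E-box letters begin 22 bases before the start in DDX31 and 170 and 11 bases before it in NOP10.

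RefSeq promoters were matched by symbol for 49 of the 60 members. CCGGAAGT was found in 13 of the 49 (26.5%), against 7.70% of 9428 promoters of tested genes and 3.64% of all 27305 promoters of this length. CACGTG was found in 6 of the 49 (12.2%), against 9.07% of promoters of tested genes and 6.49% of all. Beside the 4 shown, the ETS letters were in the promoters of POLR1C, UTP4, RIOK1, LAS1L, DDX21, DDX56, NOC2L, NOC3L and RPF1, and beside the 2 shown, the E-box letters were in those of UTP4, UTP14A, UTP20 and EBNA1BP2. The ETS letters were thus present in members that fell, in the 2 that rose and in some that did not pass the test. The E-box letters were in members that fell, in NOP10 but not RIOK3, and in some that did not pass. Of the other motifs searched, also on both strands, ACGTG (which lies inside CACGTG) was in 28.6% of the members' promoters and 24.1% of those of tested genes, GCGTG in 59.2% and 46.6%, GGGCGG in 67.3% and 68.8%, and TATAAA in 4.08% and 5.12%. A match is a description of the letters, and no motif share was tested against another.

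In shTFAM cells most ribosome biogenesis transcripts were lower than in shCtrl cells. By edgeR's quasi-likelihood test, adjusted over all 14708 rows at a threshold of 0.05, 28 of the 60 members fell, against 6.59% of all tested rows. Just 2 members rose, NOP10 and RIOK3, against 11.3% of all tested rows. The remaining 30 did not pass. Of the 60 log2 fold changes, 55 were negative, and their median was -0.58 within a range of -1.11 to 1.09, beside a median of -0.015 over all tested rows, 51.4% of which were negative. In 49 members every shTFAM library was below every shCtrl library, against 20.1% of all tested rows, and in 2 every shTFAM library was above, against 22.1%. The 28 that fell were between 1.31-fold and 2.16-fold lower, and 11 of them, with RIOK3, kept their calls when any 1 library was left out. The count of falls was then 15 without shTFAM 3 or shCtrl 2, 17 without shTFAM 2 and 19 to 22 without any other. The share of all tested rows that fell also dropped, from 6.59% to between 2.07 and 4.98%. In bulk RNA, less RNA per cell and fewer cells of a kind that makes it cannot be told apart.

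Added over the 60 members, the level was 5638, 5744 and 4918 CPM in the shTFAM libraries, against 6808, 7113 and 9076 CPM in the shCtrl libraries. This is 0.564, 0.559 and 0.468% of all counts in shTFAM, against 0.701, 0.721 and 0.940% in shCtrl. The groups did not overlap, shTFAM 3 was the lowest library and shCtrl 3 the highest by a wide margin. The same ordering ran through single members: shCtrl 3 was the highest of the 6 libraries in 54 of 60 members (23.5% of all tested rows), and shTFAM 3 the lowest in 42 (23.1% of all tested rows).

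**Figure D1:**
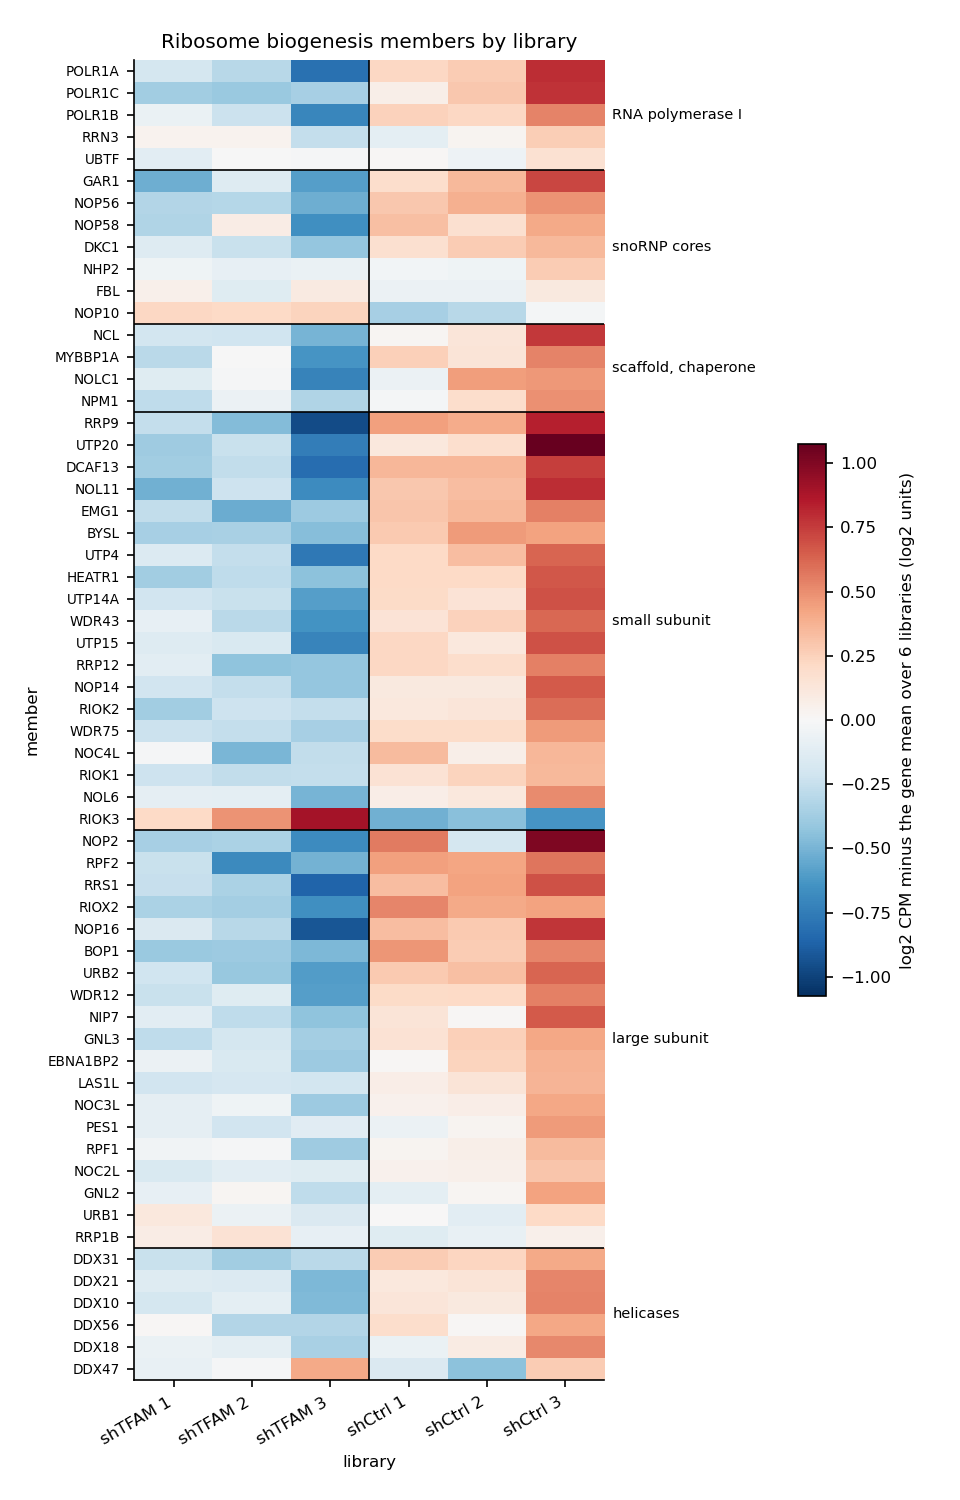
Heat map of the 60 members (rows, grouped by role) in the 6 libraries (columns, shTFAM left of shCtrl); colour gives log2 CPM minus the gene's mean over the 6 libraries. Most rows are blue in the shTFAM columns and red in the shCtrl columns, deepest in shTFAM 3 and shCtrl 3, while RIOK3 and NOP10 run the other way.

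Of the 5 genes of RNA polymerase I transcription, the 3 enzyme subunits fell and the 2 initiation factors did not pass the test. The share of all tested rows that fell was 6.59%. POLR1A, the largest catalytic subunit (ENSG00000068654, chromosome 2, 86020216 to 86106155, minus strand, hg38), had 101, 92.9 and 65.8 CPM in the 3 shTFAM libraries, against 134, 138 and 199 CPM in the 3 shCtrl libraries. All 3 shTFAM values lie below all 3 shCtrl values, and shCtrl 3 is far above the other 2 (log2 fold change -0.86, SE 0.213, adjusted p 0.0345). POLR1B, the second-largest subunit, had 65, 58.2 and 42 CPM in shTFAM, against 81, 79.7 and 99 CPM in shCtrl (log2 fold change -0.65, SE 0.179, adjusted p 0.0461). POLR1C, a subunit shared with RNA polymerase III, had 19.2, 19 and 19.5 CPM in shTFAM, against 26.2, 30.5 and 42.9 CPM in shCtrl (log2 fold change -0.79, SE 0.188, adjusted p 0.031). The shTFAM values of POLR1C were nearly equal, and nearly all of the spread was among the shCtrl libraries.

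UBTF, which binds along the rRNA genes and keeps them open for transcription, was the most abundant of the 5 per length. It had 159, 171 and 169.9 CPM in shTFAM, against 173, 165 and 192 CPM in shCtrl, so the groups overlapped (log2 fold change -0.09, SE 0.0941, adjusted p 0.56). RRN3, the factor that brings the polymerase to the promoter, averaged 71.9 ± 8.28 CPM in shTFAM and 78.3 ± 10.4 CPM in shCtrl (SD, n = 3 each; log2 fold change -0.12, SE 0.137, adjusted p 0.563), also with overlap. Its 4 pseudogene rows hold reads amounting to 17.7% of its own counts, so its value is uncertain. The polymerase calls are near the threshold: POLR1A lost its call without any 1 library (adjusted p 0.0516 to 0.0821), and POLR1B without any 1 except shTFAM 1 (0.0798 to 0.109). POLR1C kept its call without shCtrl 1 or shCtrl 3 and lost it without shCtrl 2, shTFAM 1, shTFAM 2 or shTFAM 3 (0.0657 to 0.0872), and its row overlaps XPO5 on the other strand, which also fell (log2 fold change -0.61, adjusted p 0.0239).

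Among the 7 snoRNP core proteins, NOP56, DKC1 and GAR1 fell and NOP10 rose, while 3 did not pass (median log2 fold change -0.53). Over all tested rows, 6.59% fell and 11.3% rose. The box C/D particles guide 2′-O-methylation of rRNA and are built on NOP56, NOP58 and the methyltransferase FBL (fibrillarin). NOP56 (ENSG00000101361, chromosome 20, 2652593 to 2658393, plus strand) had 116, 116 and 99.8 CPM in shTFAM, against 176, 188 and 201 CPM in shCtrl. The groups lie well apart and each is tight (log2 fold change -0.77, SE 0.102, adjusted p 0.00501, 1.7-fold lower), and the call was kept without any 1 library. NOP58 averaged 75.3 ± 19.4 CPM in shTFAM and 112 ± 9.003 CPM in shCtrl (SD, n = 3 each), with no overlap but without passing (log2 fold change -0.58, SE 0.186, adjusted p 0.073), except without shTFAM 2 (adjusted p 0.0301). FBL had 159, 141 and 165 CPM in shTFAM, against 147, 147 and 165 CPM in shCtrl. Its groups overlapped almost fully (log2 fold change 0.02, SE 0.101, adjusted p 0.925), and the sign of its small change depends on scaling, being -0.06 with library totals and -0.11 with counts outside mtDNA.

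The box H/ACA particles guide pseudouridylation and hold DKC1 (dyskerin, the pseudouridine synthase), NOP10, NHP2 and GAR1. DKC1 had 121, 113 and 99.8 CPM in shTFAM, against 150.5, 162 and 170.2 CPM in shCtrl (log2 fold change -0.53, SE 0.106, adjusted p 0.018). GAR1 had 10.9, 14.2 and 10.4 CPM in shTFAM, against 17.9, 19.97 and 25.8 CPM in shCtrl (log2 fold change -0.84, SE 0.199, adjusted p 0.0298). In both, every shTFAM library was below every shCtrl library. NOP10 (ENSG00000182117, chromosome 15, 34341719 to 34343136, minus strand) had 103, 103 and 104 CPM in shTFAM, against 69, 72 and 87.3 CPM in shCtrl. It was higher in all 3 shTFAM libraries, which were nearly equal (log2 fold change 0.44, SE 0.113, adjusted p 0.0377, 1.36-fold higher). NHP2 averaged 88.1 ± 1.25 CPM in shTFAM and 97.3 ± 12.5 CPM in shCtrl (SD, n = 3 each; log2 fold change -0.14, SE 0.112, adjusted p 0.403). DKC1 lost its call without shTFAM 2 or shCtrl 2 (0.0541 and 0.0619), and GAR1 without shTFAM 1, shTFAM 3, shCtrl 2 or shCtrl 3 (0.0630 to 0.0870). The rise of NOP10 was called without shCtrl 3 (0.0159) and not without any other 1 library (0.0877 to 0.122), nor with library totals (0.0703), with counts outside mtDNA (0.0770) or with no filter (0.0658).

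The 4 nucleolar scaffold and chaperone proteins include 3 of the 4 most abundant members per length. All 4 had negative log2 fold changes, as did 51.4% of all tested rows, and 0 of them passed, while 6.59% of all tested rows fell. All 4 had an unadjusted edgeR p under 0.05, as did 5116 of all 14708 tested rows. DESeq2 called 3 of the 4 lower, against 11.4% of all tested rows. NPM1 (nucleophosmin, which holds the outer nucleolus together and chaperones ribosomal proteins) had 739.5, 858 and 714 CPM in the 3 shTFAM libraries, against 879.6, 1021 and 1255 CPM in the 3 shCtrl libraries. The groups do not overlap, yet shTFAM 2 and shCtrl 1 are close (log2 fold change -0.45, SE 0.151, adjusted p 0.081, DESeq2 adjusted p 0.0362). NPM1 has 46 pseudogene rows in the table that hold reads amounting to 8.42% of its counts, and the largest of them, NPM1P27, fell (log2 fold change -0.61, adjusted p 0.0309). NCL (nucleolin, an RNA-binding protein of the precursor) averaged 400.2 ± 45.7 CPM in shTFAM and 624 ± 184 CPM in shCtrl (SD, n = 3 each; log2 fold change -0.64, SE 0.207, adjusted p 0.0727, DESeq2 adjusted p 0.0176). MYBBP1A, a nucleolar protein that also acts on transcription factors, had a log2 fold change of -0.61 (adjusted p 0.0571, DESeq2 adjusted p 0.0125), and passed in edgeR without shTFAM 2 (0.0467). NOLC1 (Nopp140, which binds snoRNPs) had -0.56 (adjusted p 0.118) with overlapping groups.

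The small-subunit group had the most calls: 12 of its 19 factors fell, 1 rose and 6 did not pass. Of all tested rows, 6.59% fell and 11.3% rose. The group's median log2 fold change was -0.68. In 18 of the 19 every shTFAM library was below every shCtrl library, against 20.1% of all tested rows. In RIOK3 every one was above, against 22.1% of all tested rows. RRP9, the protein that marks the U3 snoRNP at the heart of the processome (ENSG00000114767, chromosome 3, 51933429 to 51941904, minus strand), had 27.3, 23.7 and 16.7 CPM in the 3 shTFAM libraries, against 44.5, 43.1 and 58.4 CPM in the 3 shCtrl libraries. This was the largest fall of any called member (log2 fold change -1.11, SE 0.209, adjusted p 0.015, 2.16-fold lower). DCAF13, a WD-repeat processome protein, had 44, 47.5 and 32.2 CPM in shTFAM, against 72.8, 73 and 95.4 CPM in shCtrl (log2 fold change -0.96, SE 0.181, adjusted p 0.015). Its row overlaps SLC25A32 on the other strand, which also fell (log2 fold change -0.86, adjusted p 0.0213).

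EMG1, which methylates a base of the small-subunit rRNA, had 79.3, 66.1 and 73 CPM in shTFAM, against 117, 122 and 139 CPM in shCtrl (log2 fold change -0.79, SE 0.113, adjusted p 0.00632). BYSL (bystin), needed late in small-subunit export, had 19, 19.1 and 17.7 CPM in shTFAM, against 29.5, 33.5 and 32.8 CPM in shCtrl (log2 fold change -0.78, SE 0.111, adjusted p 0.00624). Both showed gaps between groups much wider than the spread within them. The calls of RRP9, DCAF13, EMG1 and BYSL held without any 1 library, as did that of WDR75, a member of the processome module that acts on transcription as well (71 ± 3.34 CPM in shTFAM and 106 ± 11.3 CPM in shCtrl, SD, n = 3 each; log2 fold change -0.57, SE 0.108, adjusted p 0.0153).

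The other processome members that fell were NOL11 (log2 fold change -0.95, adjusted p 0.0151), HEATR1 (-0.74, 0.0164), UTP4 (-0.77, 0.0337), WDR43 (-0.68, 0.0435) and UTP14A (-0.71, 0.0368), of which the first 4 belong with WDR75 to the module that joins the precursor earliest. WDR43, the most abundant of the small-subunit group per length, had 93.4, 81.3 and 63.4 CPM in shTFAM, against 109.9, 118 and 153 CPM in shCtrl. RRP12, which acts in export of the pre-ribosome, also fell (-0.64, adjusted p 0.0261). NOL11 and HEATR1 lost their calls without shTFAM 3 (0.0507 and 0.0568), and RRP12 without shTFAM 2, shTFAM 3, shCtrl 1 or shCtrl 2 (0.0524 to 0.0803). UTP4 and WDR43 kept theirs without shTFAM 1 and lost them without any other 1 library (up to 0.0817 and 0.103), and UTP14A lost its call without any 1 (0.0557 to 0.0997). The UTP4 row overlaps SNTB2 on the same strand, which rose (log2 fold change 0.56, adjusted p 0.0281).

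The 3 RIO kinases, atypical kinases that act on late precursors of the small subunit, were all apart between the groups. In shTFAM 1 was higher and 2 were lower, and 22.1% and 20.1% of all tested rows were likewise apart in these directions. By the test 1 of the 3 rose and 1 fell, against 11.3% and 6.59% of all tested rows. RIOK3 (ENSG00000101782, chromosome 18, 23453287 to 23486603, plus strand) had 45.4, 54.7 and 72.8 CPM in shTFAM, against 27.3, 28.7 and 25.2 CPM in shCtrl. It was the largest rise of any member (log2 fold change 1.09, SE 0.179, adjusted p 0.00967, 2.13-fold higher), highest in shTFAM 3, and was called without any 1 library (adjusted p 0.0106 to 0.0366). RIOK1 had 53.3, 51.6 and 52 CPM in shTFAM, against 69.1, 73.3 and 79.3 CPM in shCtrl and fell (log2 fold change -0.50, SE 0.094, adjusted p 0.0151), losing its call without shTFAM 2 or shCtrl 2 (0.0513 and 0.0557). RIOK2 averaged 12.02 ± 0.638 CPM in shTFAM and 18 ± 3.65 CPM in shCtrl (SD, n = 3 each) and did not pass (log2 fold change -0.58, SE 0.174, adjusted p 0.0588). The other 5 that did not pass were NOP14 (-0.61, adjusted p 0.0505), UTP20 (-0.97, 0.0524), UTP15 (-0.68, 0.0702), NOC4L (-0.50, 0.0771) and NOL6 (-0.47, 0.0956). UTP20 combined a large difference of means with a wide shCtrl spread: it had 80.3, 89 and 62.6 CPM in shTFAM, against 114, 119 and 221 CPM in shCtrl, and shCtrl 3 lies far above the rest.

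Of the 19 large-subunit assembly factors, 9 fell (47.4%, against 6.59% of all tested rows), 0 rose and 10 did not pass. Their median log2 fold change was -0.55. BOP1, PES1 and WDR12 form the PeBoW complex, needed to process the large-subunit rRNA. BOP1 (ENSG00000261236, chromosome 8, 144262045 to 144291438, minus strand) had 68, 68.4 and 64.3 CPM in the 3 shTFAM libraries, against 125, 108 and 129 CPM in the 3 shCtrl libraries. This was the smallest adjusted p of any member (log2 fold change -0.85, SE 0.101, adjusted p 0.00374, 1.8-fold lower). WDR12 averaged 37.5 ± 6.05 CPM in shTFAM and 58.3 ± 7.87 CPM in shCtrl and fell (SD, n = 3 each; log2 fold change -0.64, SE 0.158, adjusted p 0.0343), but the call was lost without any 1 library (0.0526 to 0.0757). PES1 averaged 89.6 ± 3.53 CPM in shTFAM and 110.2 ± 21.9 CPM in shCtrl without passing (SD, n = 3 each; log2 fold change -0.30, SE 0.147, adjusted p 0.194).

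RPF2 and RRS1, partners that dock the particle holding the smallest rRNA of the large subunit, both fell. RPF2 had 27.3, 20.1 and 22.7 CPM in shTFAM, against 44, 43.3 and 48.1 CPM in shCtrl (log2 fold change -0.95, SE 0.137, adjusted p 0.00648). RRS1 had 32.3, 30.3 and 21.1 CPM in shTFAM, against 48.2, 51.6 and 61.8 CPM in shCtrl (log2 fold change -0.95, SE 0.184, adjusted p 0.0166). In both pairs of groups the lowest shCtrl library was well above the highest shTFAM library.

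RIOX2, an oxygenase that hydroxylates a ribosomal protein of the large subunit, had 29.2, 28.6 and 23.3 CPM in shTFAM, against 53.1, 48.8 and 49.9 CPM in shCtrl (log2 fold change -0.91, SE 0.12, adjusted p 0.00495). URB2 had 39.2, 34.4 and 30.0 CPM in shTFAM, against 55.4, 57 and 70.5 CPM in shCtrl (log2 fold change -0.82, SE 0.146, adjusted p 0.0126). GNL3 (nucleostemin, a GTPase enriched in dividing cells), the most abundant of the group per length, had 112, 119 and 105 CPM in shTFAM, against 151, 162 and 181 CPM in shCtrl (log2 fold change -0.55, SE 0.104, adjusted p 0.0149). NOP16 (-0.90, adjusted p 0.0359) and LAS1L, of the nuclease complex that cuts the second internal spacer (-0.39, 0.0391), also fell. The calls of BOP1, RPF2, RRS1, RIOX2 and URB2 held without any 1 library. GNL3 lost its call without shCtrl 2 (0.0519), NOP16 without any 1 except shTFAM 1 (0.0631 to 0.0856), and LAS1L without any 1 (0.0507 to 0.0965).

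NOP2, a methyltransferase of the large-subunit rRNA, had the largest difference among the members that did not pass. It had 83.9, 84.7 and 67.3 CPM in shTFAM, against 158, 94.2 and 215 CPM in shCtrl. The groups do not overlap, but shCtrl 2 is close to the shTFAM libraries and far below the other 2 shCtrl values (log2 fold change -0.98, SE 0.28, adjusted p 0.0512), and without shCtrl 2 it passed (0.0197). A row on the same strand that overlaps NOP2 and most of CHD4, ENSG00000285238, had 86.9 CPM in shCtrl 2, 0.133 CPM in shTFAM 2 and no count in the other 4 libraries. With the counts of that row added, NOP2 had 83.9, 84.9 and 67.3 CPM in shTFAM, against 158, 181 and 215 CPM in shCtrl and passed (log2 fold change -1.23, SE 0.149, adjusted p 0.00387), an alternative chosen after seeing the data. The labels do not state how reads were divided between such rows, so the value of NOP2 is uncertain. The other 9 that did not pass were EBNA1BP2 (-0.42, adjusted p 0.0729), NIP7 (-0.57, 0.0764), NOC2L (-0.28, 0.104), NOC3L (-0.36, 0.133), PES1, RPF1 (-0.28, 0.214), GNL2 (-0.24, 0.326), URB1 (-0.07, 0.71) and RRP1B (0.10, 0.525). The sign of RRP1B depends on scaling, being -0.02 with counts outside mtDNA. URB1 and URB2 are partners in one complex in yeast, and here URB1 averaged 83.5 ± 7.98 CPM in shTFAM and 87.9 ± 10.3 CPM in shCtrl with overlapping groups (SD, n = 3 each).

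Of the 6 DEAD-box RNA helicases, which unwind or remodel rRNA and its guides, 1 fell and 5 did not pass. By the same test, 6.59% of all tested rows fell. DDX31 had 22.3, 20.2 and 21.5 CPM in shTFAM, against 31.6, 30.8 and 34.8 CPM in shCtrl. The groups are apart and tight (log2 fold change -0.60, SE 0.109, adjusted p 0.0134), and the call was lost only without shTFAM 2 (0.0521). DDX21, the most abundant helicase of the 6 per length, had 321, 319 and 253 CPM in shTFAM, against 383, 391 and 510.4 CPM in shCtrl and lay just beyond the threshold (log2 fold change -0.52, SE 0.152, adjusted p 0.0543, DESeq2 adjusted p 0.0145). DDX10 (-0.52, adjusted p 0.064), DDX56 (-0.42, 0.0904) and DDX18 (-0.37, 0.166) had negative values. DDX47 had a positive one (0.20, 0.546) with overlapping groups. Its row lies almost wholly inside APOLD1 on the same strand, which had 5.55, 8.15 and 7.18 CPM in shTFAM, against 7.49, 34.2 and 5.67 CPM in shCtrl, and with those counts added the log2 fold change of DDX47 was 0.07 (adjusted p 0.791).

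**Figure D2:**
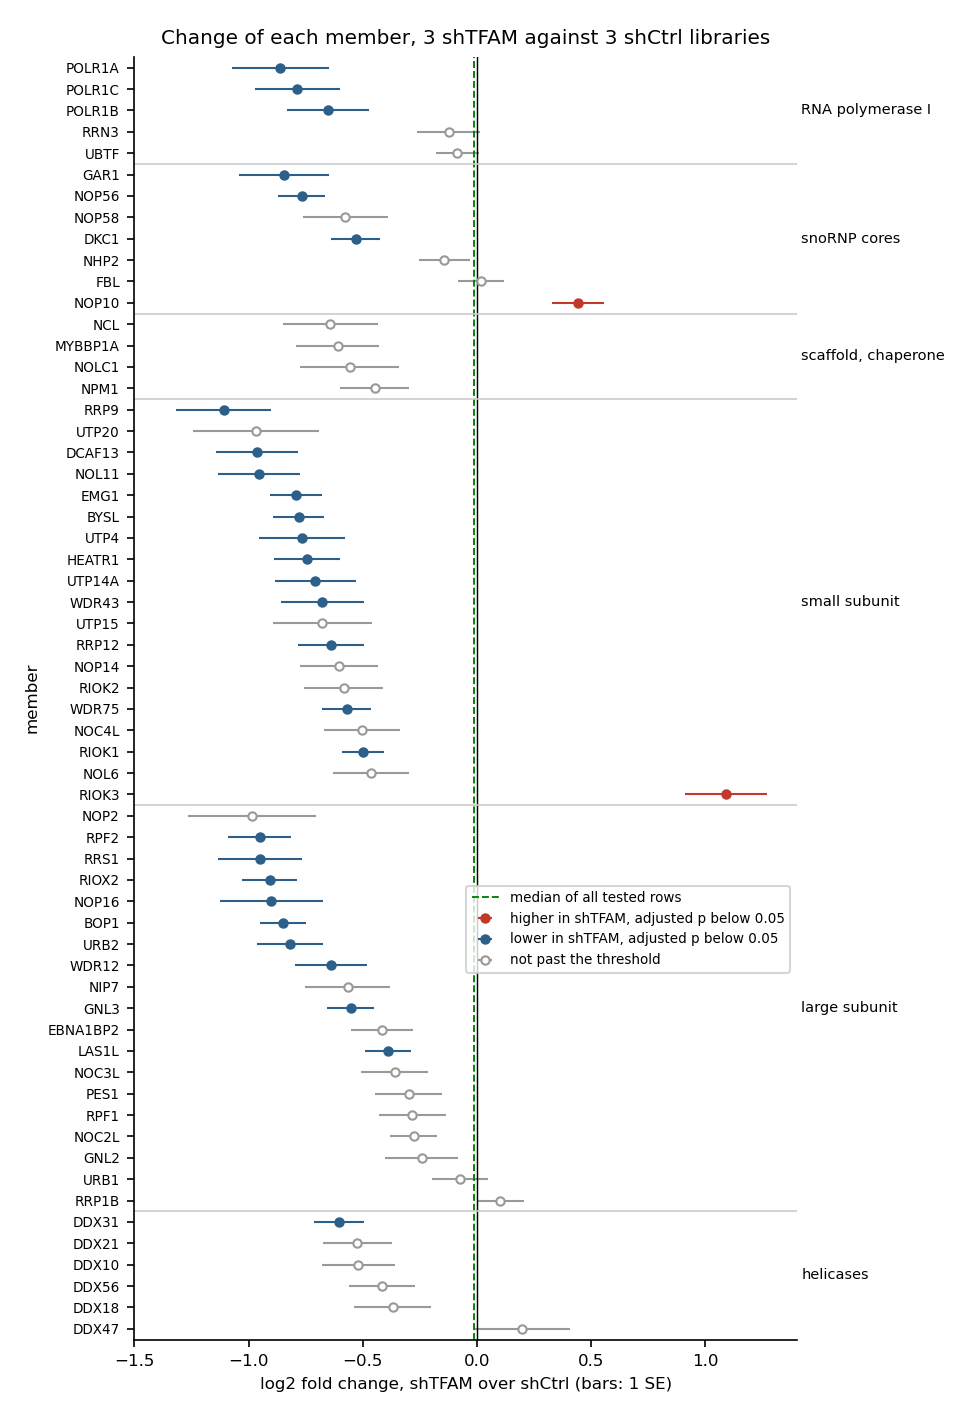
Log2 fold change of each member, shTFAM over shCtrl, with bars of 1 SE, grouped by role; filled points passed an adjusted p of 0.05 and open points did not. Points gather between -1.11 and 0, left of the dashed line at the median of all tested rows (-0.015), with RIOK3 (1.09) and NOP10 (0.44) to the right.

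**Figure D3:**
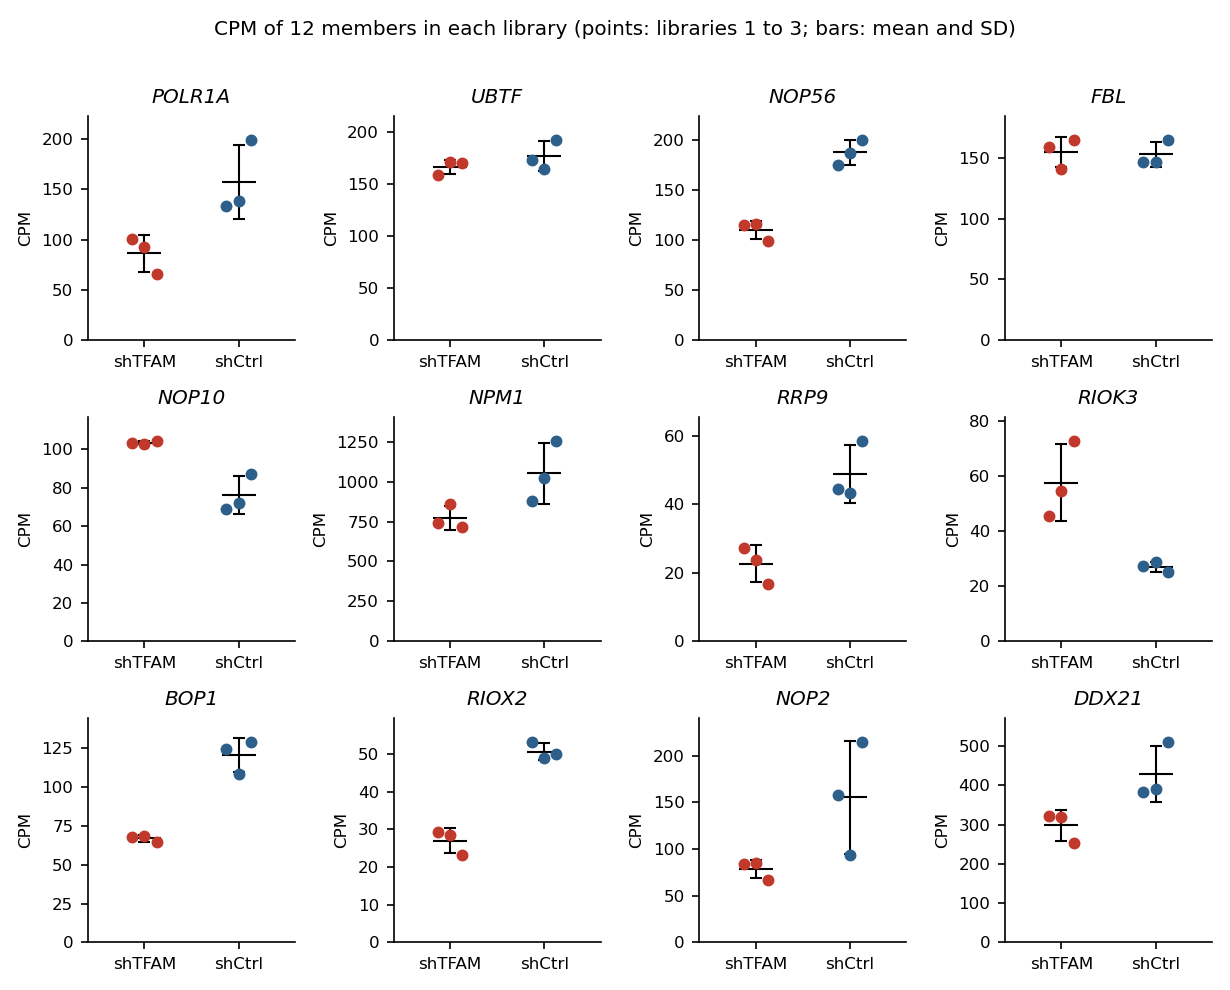
CPM of 12 members in each library, shTFAM left of shCtrl, with the mean and SD of 3 libraries. BOP1, RIOX2 and NOP56 show gaps between tight groups, UBTF and FBL overlap, NOP10 and RIOK3 are higher in shTFAM, and NOP2 shows a wide shCtrl spread with shCtrl 2 low, the library in which an overlapping row holds 86.9 CPM.

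The members span a wide range of levels per length, and the members that fell had a median level close to that of the members that did not pass. Mean FPKM over the 6 libraries went from 2.32 for RIOK2 to 202 for NPM1, with a median of 14.4, and 56 of 60 members were above the median of all tested rows (4.17 FPKM). NPM1 had 166 ± 18.8 FPKM in shTFAM and 239 ± 43.7 FPKM in shCtrl, and NOP10 168 ± 4.18 FPKM in shTFAM and 131 ± 17.4 FPKM in shCtrl (SD, n = 3 each). These 2 are followed by NOLC1, NCL, DDX21 and FBL. The 28 members that fell had a median level of 13.5 FPKM, and the 30 that did not pass had 14.9 FPKM. Within groups the coefficient of variation of CPM had a median of 12.3% in shTFAM (0.747% for LAS1L to 26.0% for NOP16) and 14.2% in shCtrl (4.49% for RIOX2 to 40.2% for UTP20).

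The remainder of the pathway was described with 110 further genes in 5 lists, none of them members. Of these, 27 fell (24.5%, against 6.59% of all tested rows) and 0 rose (against 11.3% of all tested rows), 98 were negative (89.1%, against 51.4%), and the median log2 fold change was -0.37. Among 35 other small-subunit factors 9 fell (25.7%), led by RRP7A (log2 fold change -0.71, SE 0.139, adjusted p 0.0169) and PDCD11, the human Rrp5 (log2 fold change -0.66, SE 0.135, adjusted p 0.0198). Among 35 other large-subunit factors 14 fell (40%), led by WDR74 (log2 fold change -0.78, SE 0.117, adjusted p 0.00719) and NLE1 (log2 fold change -0.65, SE 0.11, adjusted p 0.011), both adaptors of remodelling ATPases. Among 11 other nucleolar helicases 3 fell (27.3%), led by DDX49 (log2 fold change -0.53, SE 0.116, adjusted p 0.0242) and DDX51 (log2 fold change -0.54, SE 0.129, adjusted p 0.0313). Of 14 genes of the RNA exosome, which trims rRNA ends, 1 fell (7.14%, close to the 6.59% of all tested rows), EXOSC4 (log2 fold change -0.87, SE 0.195, adjusted p 0.026).

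Of 15 other polymerase I subunits and initiation factors, 0 passed in edgeR, against 6.59% of all tested rows that fell and 11.3% that rose. Their median log2 fold change was -0.17. An unadjusted edgeR p under 0.05 was found for 6 of the 15, and for 5116 of all 14708 tested rows. The calls of WDR74 and NLE1 held without any 1 library, PDCD11 lost its call without shCtrl 2 (0.0578), and RRP7A without shTFAM 2 or shTFAM 3 (0.0575 and 0.0558). DDX49 lost it without shTFAM 2, shTFAM 3, shCtrl 1 or shCtrl 2 (0.0546 to 0.0692), DDX51 without any 1 library (0.0513 to 0.0983), and EXOSC4 without any 1 except shTFAM 1 (0.0571 to 0.0747). The count of 27 was itself sensitive to library number, at 5 to 11 (4.55 to 10% of the 110) with any 1 library left out, against 2.07 to 4.98% of all tested rows, lowest without shCtrl 2.

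The transcript of MYC did not pass the test. It had 48.4, 50.2 and 56.8 CPM in shTFAM, against 64.3, 35.2 and 63.5 CPM in shCtrl, with overlap (log2 fold change -0.07, SE 0.228, adjusted p 0.862), and its partner MAX averaged 23.3 ± 4.43 CPM in shTFAM and 25 ± 3.71 CPM in shCtrl (SD, n = 3 each; log2 fold change -0.10, SE 0.179, adjusted p 0.731). Of the 9 genes of the MYC network, 1 rose and 0 fell, against 11.3% and 6.59% of all tested rows, so the list is close to the share that rose. The 1 that rose was MXI1, which encodes a repressor that competes with MYC for MAX. MXI1 had 58, 132 and 178 CPM in shTFAM, against 50.5, 47 and 44.8 CPM in shCtrl. It was higher in shTFAM with a wide spread (log2 fold change 1.37, SE 0.361, adjusted p 0.0413), and shTFAM 1 was near the shCtrl level, and the call was lost without any 1 library except shTFAM 1 (0.0943 to 0.107).

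**Figure D4:**
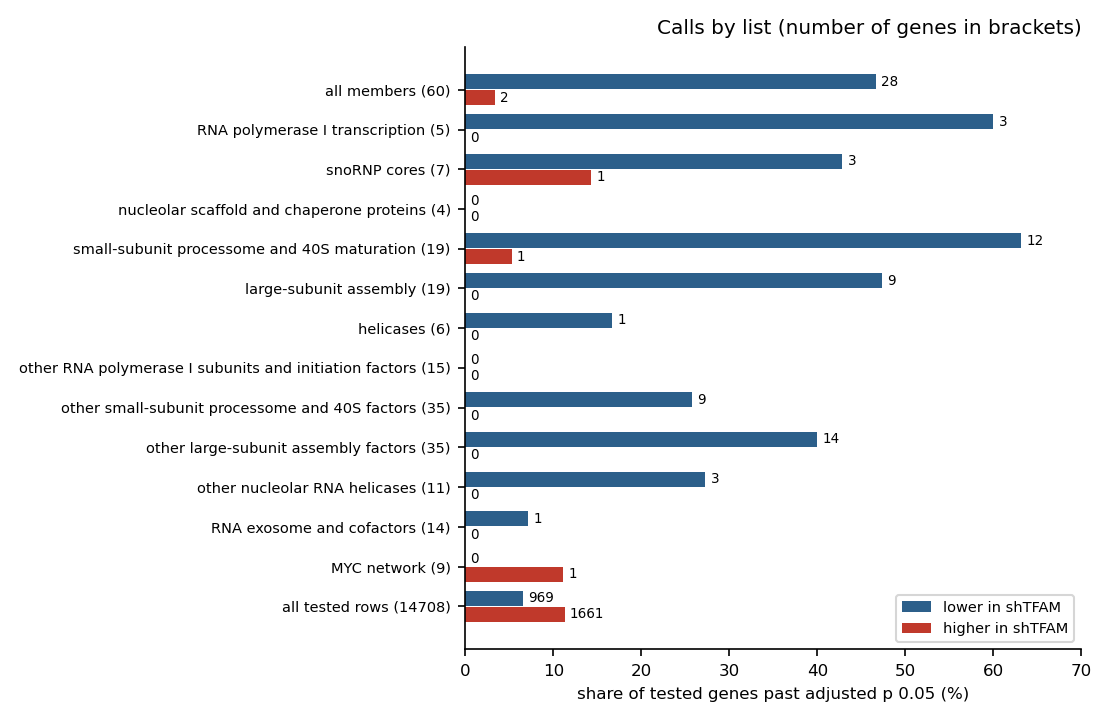
Share of genes past an adjusted p of 0.05 in each list, lower and higher in shTFAM, with the number of genes at each bar. The member groups of the polymerase, snoRNPs, both subunits and helicases (1 call in 6) lie above the share of all tested rows that fell (6.59%), as do the other factors of both subunits and the other helicases. The exosome, with 1 call in 14, is close to that share, and the scaffold proteins, the other polymerase I genes and the MYC network have 0 lower.

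Since shTFAM 3 was the lowest and shCtrl 3 the highest library for most members, values were also taken without both. With 2 libraries a group, 52 of 60 members were still negative, with a median log2 fold change of -0.38 in place of -0.58, and 23 fell, against 4.57% of all tested rows. Of these 23, 22 are among the 28 of the full comparison, and the other is UTP20 (log2 fold change -0.46, adjusted p 0.039). The change of RRP9 was then -0.78, of POLR1A -0.49 and of RPF2 -0.88, while RIOK3 (0.84, adjusted p 0.0231) and NOP10 (0.55, 0.0187) were again called higher. The 6 whose calls were lost were POLR1B, POLR1C, GAR1, WDR43, RRP12 and LAS1L (adjusted p 0.0523 to 0.104).

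**Figure D5:**
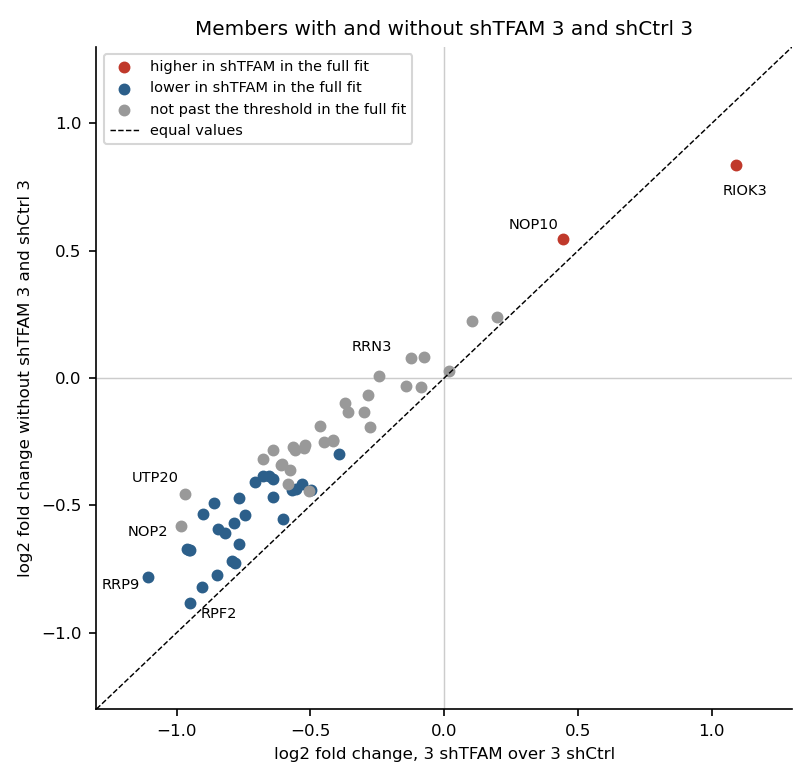
Log2 fold change of each member in the full comparison (horizontal) against the value without shTFAM 3 and shCtrl 3 (vertical); the dashed line marks equal values. Nearly all members lie above the line, most of them nearer to 0 on the vertical axis, and 52 of 60 stay below 0.

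Other measures were set beside the groups. The share of counts from mtDNA was 8.65, 10.7 and 7.91% in shTFAM, against 13.5, 14.2 and 10.1% in shCtrl, where shTFAM 2 lies above shCtrl 3, and with counts outside mtDNA as the library size 44 members fell, against 12% of all tested rows. Markers of other cell types were looked at as lists. Of 6 fibroblast and stellate genes, 5 were above the filter and COL1A2 had no count, and their sum was 37.0 to 40.9 FPKM in shTFAM and 24.9 to 38.3 FPKM in shCtrl. Of 4 leukocyte genes, 1 was above the filter, CD68, and PTPRC and CD3E had no count, and their sum was 12.6 to 17.3 FPKM in shTFAM and 4.40 to 6.49 FPKM in shCtrl. Of 4 endothelial genes, 0 were above the filter, KDR had no count, and their sum was 0.389 to 0.643 FPKM in shTFAM and 0.363 to 0.519 FPKM in shCtrl. The fibroblast and endothelial sums overlapped between the groups, and the leukocyte sum did not. That sum was almost all CD68, which rose (13.9 ± 2.77 FPKM in shTFAM and 5.49 ± 1.19 FPKM in shCtrl, SD, n = 3 each; log2 fold change 1.43, edgeR adjusted p 0.00892). In the fibroblast list PDGFRB (log2 fold change 1.69, adjusted p 0.000721) and DCN (2.95, 0.00276) rose, while COL1A1, the most abundant (0.09, 0.779), LUM (1.17, 0.0924) and ACTA2 (-0.68, 0.226) did not pass. The part of these differences in the fall of the members was not tested.

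On chromosome 8 lie 3 members: BOP1, DCAF13 (ENSG00000164934, chromosome 8, 103414714 to 103443453, plus strand) and RRS1 (ENSG00000179041, chromosome 8, 66429014 to 66430733, plus strand). All 3 fell, and all 3 calls held without any 1 library. Of the 503 tested rows of chromosome 8, 14.1% fell and 9.54% rose (median log2 fold change -0.17), the highest share of falls of any nuclear chromosome here. The changes of BOP1 (-0.85), DCAF13 (-0.96) and RRS1 (-0.95) lie further below 0 than that median.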

How the data were processed

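Poly(A) RNA was made into dUTP-marked, strand-keeping libraries and sequenced as pairs, per the labels' protocols. The authors deposited 1 table with whole-number counts and FPKM per Ensembl gene, per the file headers. The FPKM follow the counts up to 1 factor per library (SD of the log2 ratio at most 0.00278). Per the submitters' processing notes, StringTie 1.3.4d, HISAT2 2.0.4, cutadapt 1.9 and Bowtie 0.12.2 were used, with hg38 and mm8 as builds and no roles given. The counting tool, annotation and strand setting are not given in the sources used here, so overlapping genes and pseudogenes may share reads. The table had 0 columns of unknown samples.

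Groups follow the treatment label and replicates are numbered in accession order, with no pairing. Counts were tested with edgeR 4.0.16 in R 4.3.3 (quasi-likelihood, TMM scaling, rows with a mean FPKM of at least 0.5, two-sided, Benjamini-Hochberg over 14708 rows, threshold 0.05), and adjusted p means this test unless DESeq2 1.42.0 or limma 3.58.1 is named. SE is the log2 fold change over the root of F. Where a left-out library leaves 2 in a group, the spread is pooled. The code was tested on simulated data. Replicates differed by more than sampling noise (lowest chi-square per degree of freedom 42.6).

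Given in full by rule were, per group, up to 4 called members with the smallest p, the most abundant member and any called against the majority, with up to 2 called genes per pathway list. Other members were named after their values were seen. Members and lists were chosen with earlier results of these data known. Promoters came from RefSeq (1 start per gene), and for 47 of 49 the following bases opened a GENCODE transcript. Promoters of BOP1, RRP1B, RPF2, DDX18, RRP12, RIOX2, DCAF13, RRS1, URB2, NOLC1 and NOP58 were not used here. Older symbols were matched through RefSeq. Figures used matplotlib 3.10.9. Alternatives were other filters, scalings, tools, pseudocounts (1 and 0.1), a threshold of 0.01, left-out libraries and, chosen after seeing the data, overlapping rows added to NOP2 and DDX47.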

Additional observations from a re-analysis of the deposited data

How the results depend on the processing

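The fall of the members kept its direction under every alternative run, while the number past the threshold moved. In the following counts, brackets give the share of all tested rows that fell at the same setting. Beside 28 members (6.59%), the count was 44 with counts outside mtDNA as library size (12%), 42 with DESeq2 (11.4%) and 34 with library totals (8.61%). It was 23 with no filter (2.29%) and 26 with edgeR's filterByExpr (5.12%). With a minimum mean of 5 FPKM it was 33 of the 53 members then tested (11.3%). In these settings the share of all rows moved in the same direction as the count of members. At an adjusted p of 0.01, 6 members and 139 of all 14708 tested rows fell. With any 1 library left out, 15 to 22 members fell (2.07 to 4.98%), being 15 without shTFAM 3 or shCtrl 2 and 17 without shTFAM 2. The median log2 fold change of the members was -0.66 with library totals and -0.71 with counts outside mtDNA, settings that moved the median of all rows to -0.090 and -0.15. It was -0.384 without shTFAM 3 and shCtrl 3 and -0.652 to -0.487 with any 1 library left out. Beside 2 members called higher, 1 was called with no filter, library totals, counts outside mtDNA, limma on log2(FPKM + 1) or log2(FPKM + 0.1) and at 0.01, and 1 to 2 with a library left out. In each of these the lost member was NOP10. With the counts of overlapping rows on the same strand added to NOP2 and DDX47, an alternative chosen after seeing the data, 29 members fell, the 28 and NOP2.

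Over all rows, 1661 calls higher became 2173 with DESeq2, 1774 with edgeR's filterByExpr, 1020 with a minimum mean of 5 FPKM, 559 at 0.01 and 843 to 1332 with a library left out. The 969 lower became 1771 with counts outside mtDNA, 1677 with DESeq2, 139 at 0.01 and 305 to 733 with a library left out. The split of calls depended on scaling, with 1198 higher beside the 1771 lower, and 1353 higher and 1266 lower with library totals. No paired analysis was possible because the titles give no replicate numbers that the groups share. With 3 libraries a group and a common coefficient of biological variation of 0.251, a member that did not pass is not shown to be equal between groups. The cause of each change between settings was not tested.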

Other observations

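The table's own Gene Ontology column gave sets of tested genes from which only the members were removed. Genes of the pathway lists above were left in, so these sets are not independent of those lists. Of 126 tested genes annotated to rRNA processing, 26 fell (20.6%) and 0 rose in edgeR, beside 6.59% lower and 11.3% higher over all tested rows, with a median log2 fold change of -0.26. Of 65 annotated to ribosome biogenesis, 14 fell (21.5%) and 1 rose (1.54%; median -0.32). Of 94 annotated to tRNA processing, 14 fell (14.9%) and 1 rose (1.06%; median -0.30). Of 692 genes annotated to the nucleolus, 72 fell (10.4%) and 59 rose (8.53%), with a median of -0.074. Of 353 nuclear speck genes, 11 fell (3.12%) and 32 rose (9.07%; median 0.02), and of 237 genes of spliceosomal splicing, 12 fell (5.06%) and 11 rose (4.64%; median -0.11). The terms overlap, were not tested against each other and were looked at after the members' values were known.

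Some chromosomes held members that all fell. On chromosome 6 these were POLR1C, BYSL, RIOK1 and RPF2, on chromosome 3 RRP9, GNL3 and RIOX2, and on the X chromosome DKC1, UTP14A and LAS1L. The shares of all tested rows that fell there were 11.0%, 8.32% and 4.26%. On chromosome 2, 5 of 8 members fell, against 7.99% of its tested rows. Elsewhere most members did not fall. Chromosomes 12 and 5 each had 1 of 5 members lower, against 10.9% and 8.51% of their tested rows. Chromosome 1 had 2 of 6 lower (7.26% of its tested rows) and chromosome 10 had 1 of 4 (5.23%). Chromosomes 16 and 17 each had 1 of 3 lower (5.19% and 4.13%). On chromosome 21, with 25.8% of tested rows higher and a median log2 fold change of 0.27, the 2 members URB1 and RRP1B did not pass.

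The promoter letters of the ETS core were in 15.5% of 97 promoters of the further pathway genes, 6.01% of 599 promoters of all rows called lower and 4.17% of 1223 promoters of all rows called higher. These shares are descriptions and were not tested.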
